A study of Mus musculus with 816 samples.

Results

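The neurotransmitters GABA and glutamate and the endocannabinoids anandamide (AEA) and 2-arachidonoylglycerol (2AG) were each given alone to cultured mouse microglia for 24 h. These cultures were chosen by their label for stimulus and time: 12 with GABA, 7 with glutamate, 8 with AEA and 9 with 2AG, each set against 40 untreated cultures of the same time point. They make up 76 of the 816 samples of the series, 36 stimulated and 40 untreated. GABA was given at 100 µM, glutamate at 500 µM, and AEA and 2AG at 1 nM each. The study placed them in a large panel of stimuli in order to chart the states that microglia can take on, and RNA of each well was read as a 3′-end library. All cells, the untreated ones included, were commercial primary microglia from newborn mice, grown on poly-lysine in multi-well plates. The medium was changed 24 h after plating and the stimulus was added 4 days after plating. The sex of the mice, and the solvent in which AEA and 2AG were added, are not given in the sources used here. The wells of each group came from 2 or 3 lots of cells, and per the methods from more than 1 experimental day. Whether wells of 1 lot were separate cell preparations is not stated, so part of the spread behind the p-values may be technical.

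GABA opens chloride channels (GABA-A receptors) and signals through a G-protein-coupled receptor (GABA-B), and glutamate acts on the AMPA, kainate and NMDA channels and on metabotropic receptors. AEA and 2AG are lipids cut from membranes on demand. They act on the cannabinoid receptors CB1, the main form of neurons, and CB2, the form of immune cells, and are broken down by FAAH (AEA) and by MGLL and ABHD enzymes (2AG). Microglia also import and export glutamate, partly through the cystine-glutamate antiporter.

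The stimulated cultures were spread unevenly over plates, cell lots and library pools. The untreated cultures lay on 6 plates in 10 pools (L1 to L7 and L13 to L15) and came from 3 lots of cells, whereas GABA lay in 4 pools and glutamate, AEA and 2AG in 3 pools each. Edge or corner wells held 10 of 40 untreated, 6 of 12 GABA, 5 of 7 glutamate, 1 of 8 AEA and 0 of 9 2AG cultures. Depth ran from 1089000 to 14990000 mapped reads in untreated wells and from 1270000 to 26630000 in stimulated ones. Genes above 5 CPM (the share of a gene in the mapped reads, as counts-per-million) numbered 8076 to 8102 in the 3 AEA cultures of pool L5 and 9187 to 9362 in the other 5. They numbered 8069 to 8313 in the 4 GABA cultures of pool L14 and 9129 to 9532 in the other 8, while the untreated wells of these pools had 8127 to 8716 (L5) and 8096 to 8586 (L14). Homeostatic microglia markers summed to medians between 4151 and 6196 CPM in the 5 groups, and 0 of the 14 was absent in any group. Lymphocyte markers summed to at most 7.74 CPM and those of monocytes and neutrophils to at most 16.5 CPM. Fibroblast and mural markers reached 1408 CPM in an untreated culture and 1452 CPM in a 2AG culture.

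Few genes passed the test with any of the 4 stimuli. A gene was called at an adjusted p under 0.05 (limma with a term for culture plate over 374 cultures of 24 h, Benjamini-Hochberg over 14208 genes). GABA gave 9 calls (0.0633% of the genes), 8 higher (0.0563%) and 1 lower (0.00704%). Glutamate gave 1 call (0.00704%), a rise. AEA gave 55 calls (0.387%), 6 higher (0.0422%) and 49 lower (0.345%). 2AG gave 5 calls (0.0352%), 4 higher (0.0282%) and 1 lower (0.00704%). GABA was also given for 72 h, where 5.44% of genes were called (3.01% higher and 2.42% lower), and together with LPS, where 0.561% were called (0.173% higher and 0.388% lower), each against controls of its own. At 72 h 4 of the 25 untreated cultures shared a pool with the GABA cultures, and the count fell from 841 to 67 genes with library pool in place of plate, so it is not comparable with that of 24 h. In the fit of the 4 stimuli LPS at the high dose called 7037 of the 14208 genes. Among 38 stimuli AEA ranked 25, GABA 29, 2AG 32 and glutamate 34 by number of calls. These ranks are not firm, since group sizes ran from 6 to 18 cultures. The AEA count ran from 3 to 114 with 1 AEA culture left out, and the GABA count was 1 without its 4 cultures of plate P8.

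The size of change that the design could have shown was computed from the fitted standard errors. These errors treat each well as an independent replicate. They do not hold a response that varies between pools, so the figures and intervals below are best cases. For the median gene, a change of 1.30 on the log2(CPM + 1) scale (2.46-fold) with GABA would have been called with 80% power, if that gene were the only one to change. The same figure was 1.63 (3.10-fold) for glutamate, 1.55 (2.92-fold) for AEA and 1.48 (2.78-fold) for 2AG. For genes above 100 CPM in untreated wells it was 1.68-fold with GABA, 1.93-fold with glutamate, 1.86-fold with AEA and 1.81-fold with 2AG. For genes under 5 CPM it was 2.76-fold with GABA and 3.59-fold with glutamate, on a scale that understates the change of low genes. A single gene tested without adjustment needed a log2 change of 0.65 with GABA, 0.82 with glutamate, 0.78 with AEA and 0.75 with 2AG. Seen from the other side, the 95% interval of the change lay inside 2-fold for 91.1% of genes with GABA, 75.6% with glutamate, 74.9% with AEA and 84.4% with 2AG. It lay inside 1.5-fold for 44.2%, 22.9%, 23.9% and 30.8% of genes in the same order. Changes under 1.5-fold were thus below what this replication could show for most genes.

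**Figure D1:**
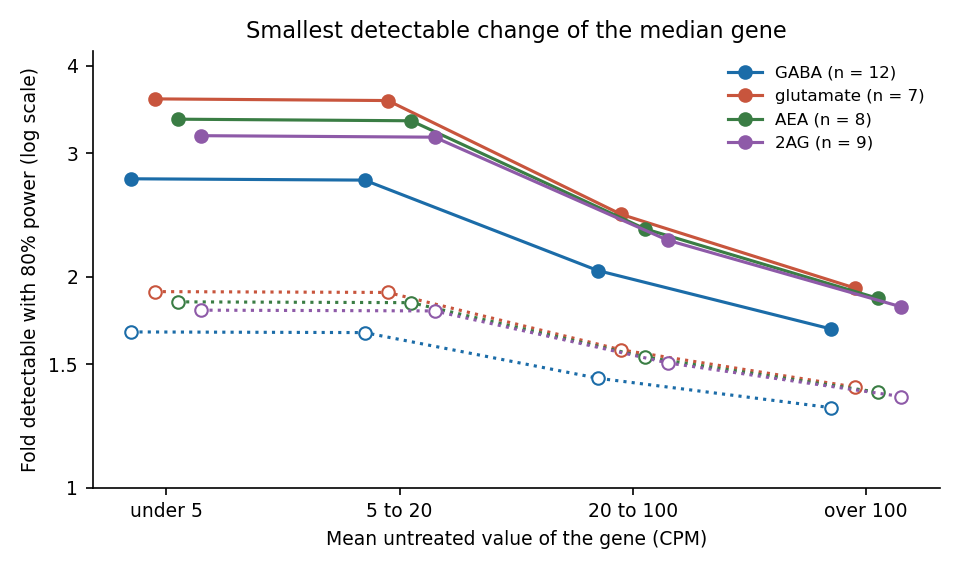
Fold change that would be called with 80% power for the median gene (vertical axis, log scale), by mean untreated level (horizontal axis, CPM), for GABA, glutamate, AEA and 2AG. Filled points and solid lines are for a lone gene that must pass adjustment over 14208 genes and open points and dotted lines are for an unadjusted p under 0.05. The filled points fall from 2.76-fold to 1.68-fold with GABA and from 3.59-fold to 1.93-fold with glutamate as the level rises.

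The genes that receive, carry, make and break down the 4 compounds were examined first. Of 111 genes on these 6 lists, 54 passed the filter of over 5 CPM in at least 4 cultures, and 0 of the 54 was called with any stimulus by limma. At an unadjusted p under 0.05 there were 4 with GABA, 3 with glutamate, 6 with AEA and 6 with 2AG, where 6.96%, 6.27%, 11.9% and 6.21% of all genes met that level. The exact rank-sum test with Bonferroni correction called 0 of the 54 as well. The median change over the 54 was -0.00 with GABA, 0.05 with glutamate, -0.11 with AEA and -0.04 with 2AG, against -0.04, 0.06, -0.12 and -0.04 over all genes. The interval lay inside 2-fold for 54 of the 54 with GABA, 47 with glutamate, 43 with AEA and 48 with 2AG.

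Among receptors, 4 of 21 GABA receptor genes passed the filter: the GABA-A subunits Gabra2, Gabrb1 and Gabrq and the GABA-B subunit Gabbr1. Gabra2 lay at 0.947 to 32.4 CPM with a median of 8.00 in untreated wells and at 4.00 to 18.6 CPM with a median of 7.64 with GABA. The ranges overlapped and the fitted difference with GABA was 0.20 (SE 0.22). Gabbr1 was listed at 0 in 26 of 40 untreated and 6 of 12 GABA cultures and did not exceed 5.82 CPM. Gabrb1 had the smallest unadjusted p of this list, 0.00258 with 2AG (log2 difference 0.66, adjusted p = 0.583 in limma).

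Of 26 glutamate receptor genes, 5 passed the filter, namely Gria3 (AMPA), Grik4 (kainate), Grin2a and Grin2b (NMDA) and Grm2 (metabotropic). Grik4 lay at 4.14 to 28.3 CPM with a median of 12.7 in untreated wells and at 8.48 to 13.96 CPM with a median of 9.49 with glutamate. The glutamate range fell within the untreated one, with a log2 difference of -0.19. Grin2b lay at 0 to 11.9 CPM in untreated wells and at most at 0.447 CPM with glutamate, near the level of single reads. Its log2 difference with glutamate was -0.48.

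Cnr2, which encodes CB2, and the related lipid receptor Gpr18 passed the filter together with the channels Trpv2 and Trpv4 and the nuclear receptors Ppard and Pparg, 6 of 11 in all, while Cnr1, which encodes CB1, did not. Cnr2 lay at 0.693 to 15.6 CPM with a median of 5.07 in untreated wells. It lay at 0 to 13.04 CPM with a median of 7.34 with AEA and at 1.67 to 11.7 CPM with a median of 6.59 with 2AG. The 3 groups overlapped over nearly their whole range, and the fitted differences were -0.30 with AEA and -0.31 with 2AG. The fit compares wells within plates, so its sign can differ from that of the medians over all plates, and without the AEA and 2AG cultures of pool L5 the differences were 0.08 and -0.28. Between AEA and 2AG the Cnr2 difference was 0.00 with a 95% interval from -0.72 to 0.72.

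**Figure D2:**
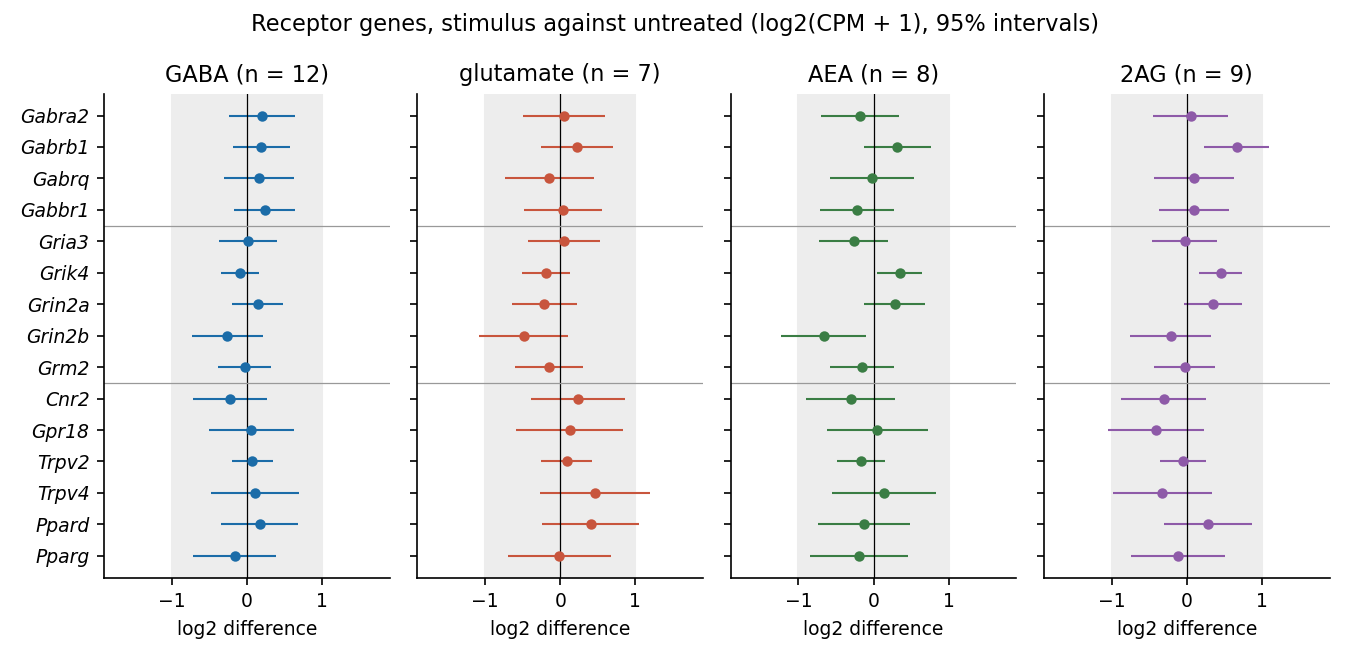
Fitted difference from untreated wells on the log2(CPM + 1) scale (horizontal axis) with 95% intervals for the 15 receptor genes that passed the filter, in 1 panel per stimulus. The grey band marks changes under 2-fold. Most intervals cross 0 and lie within the band, and none of the 15 genes was called.

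Transporters and enzymes gave the same counts of 0. Glud1, glutamate dehydrogenase, had unadjusted p-values between 0.00591 and 0.0122 with all 4 stimuli, and its sign differed between them. Glud1 lay at 74.3 to 305.9 CPM with a median of 191 in untreated wells. Its median was 138 CPM with GABA (log2 difference -0.29) and 135 CPM with glutamate (-0.40), and 238 CPM with AEA (0.38) and 242 CPM with 2AG (0.36). All 4 ranges overlapped the untreated one, and the lowest adjusted p was 0.204, with AEA. With library pool in place of plate the Glud1 differences were -0.11, -0.33, 0.09 and 0.10 in the same order. Slc3a2, the heavy chain of the cystine-glutamate antiporter and of other amino acid exchangers, had a median of 2533 CPM in untreated wells and 3304 CPM with glutamate (log2 difference 0.40, adjusted p = 0.789). Slc7a11, the light chain, had medians of 23 and 23.6 CPM in these groups. Glul, glutamine synthetase, had medians of 196 CPM untreated and 233 CPM with glutamate, and Slc1a1, a glutamate uptake carrier, 61.0 and 52.6 CPM. Slc12a5, a chloride exporter that sets the response to GABA in neurons, was listed at 0 in 22 of 40 untreated and 1 of 7 glutamate cultures, with a log2 difference of 1.01 and an adjusted p of 0.762.

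Among the endocannabinoid enzymes, Dagla, which makes 2AG, had a median of 17.4 CPM in untreated wells and 12.8 CPM with 2AG, and ranges of 6.26 to 39.5 and 2.51 to 42.3 CPM. Its log2 difference was -0.88 with 2AG (unadjusted p = 0.00700, adjusted p = 0.679) and -0.55 with AEA. Mgll, which breaks down 2AG, had a median of 63.5 CPM untreated, 88.7 CPM with AEA and 92.9 CPM with 2AG, and lay between 2.02 and 143.5 CPM in untreated wells alone. Within plates the Mgll differences were -0.51 with AEA and -0.25 with 2AG, against the order of the medians. Abhd12, a second 2AG hydrolase, had medians of 1145, 1064 and 1088 CPM in the same order. Naaa, an acid amidase for N-acylethanolamines, differed by -0.54 with AEA and -0.57 with 2AG, and neither passed (adjusted p = 0.598 and 0.869). Without the cultures of pool L5 the Naaa differences were 0.09 and -0.02.

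No gene on the lists that mark microglial activation was called with any of the 4. Bhlhe40, Cd44 and Mmp12, which are not on these lists, were called with AEA (below). The lists of inflammatory cytokines and enzymes (22 genes tested), alternative activation (10), immediate early genes (17), disease-associated microglia (15), the NRF2 oxidative stress response (14), the ATF4 amino acid and unfolded protein response (16) and cholesterol synthesis (15) gave 0 calls each. Tnf lay at 26.2 to 409.7 CPM untreated with a median of 89.8, and its medians were 52.7 CPM with GABA, 54.7 with glutamate, 59.5 with AEA and 63.8 with 2AG. The fitted Tnf differences were -0.32 (95% interval -0.72 to 0.08) with GABA, -0.09 with glutamate, -0.19 with AEA and 0.06 with 2AG. Il1b differed by 0.80 with AEA and 0.82 with 2AG (adjusted p = 0.347 and 0.742). With library pool in place of plate these Il1b differences were -0.04 and 0.07, and without the cultures of pool L5 they were 0.04 and 0.16. Il1b differed by -0.75 with glutamate (adjusted p = 0.793), and by -0.44 with pool in place of plate. Untreated Il1b ran from 0 to 65.3 CPM, wider than any of the stimulated groups. Clec4e, a receptor of innate immunity, differed by -0.58 with GABA (adjusted p = 0.5675). Retnla, a marker of IL4 stimulation, differed by -0.71 with AEA (adjusted p = 0.236), and Arg1, another, by -0.53 with AEA (adjusted p = 0.483). Irak3, an inhibitor of Toll-like receptor signalling, differed by 0.11 to 0.30 with the 4 stimuli, and none passed. The expression modules that the study had defined, in part on these samples and so no independent evidence, were also compared. With exact rank-sum p-values multiplied by the 124 tests made (Bonferroni), 0 of 31 module eigengenes was called with any stimulus, and 4, 6, 3 and 4 had an unadjusted p under 0.05 with GABA, glutamate, AEA and 2AG. The lowest corrected p was 0.088, for RE_brown with glutamate, where the eigengene was -0.38 ± 0.82 (SD, n = 40) untreated and 0.89 ± 0.77 (SD, n = 7) with glutamate. Ranked within plates or within pools, the corrected exact p of RE_brown was 1.0.

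With GABA, 6 of the 8 genes that rose encode proteins secreted by or typical of hepatocytes. Among them were Alb (albumin), Ahsg (fetuin A), Mup20 and Mup14 (major urinary proteins) and Fgb (fibrinogen beta chain). Scd1, the stearoyl-CoA desaturase of monounsaturated fat synthesis that liver and fat tissue make in quantity, and Snhg9, a small nucleolar RNA host gene, also rose. The highest values of all 8 lay in the 4 GABA cultures of pool L14, on plate P8.

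In those 4 cultures (GABA replicates 9 to 12) Alb was at 9.35, 17.5, 18 and 15.7 CPM, and in the other 8 GABA cultures it did not exceed 0.499 CPM. Mup20 was at 10.7, 22.1, 29.6 and 11.1 CPM in the 4 and was listed at 0 in the other 8 and in all 40 untreated cultures, so no fold is given. Scd1 was at 18.6, 36.04, 31.7 and 35.3 CPM in the 4, at most 0.691 CPM in the other 8, and at most 3.74 CPM in untreated wells, of which 30 were listed at 0. The 4 cultures thus did not overlap any other GABA or untreated culture for these 3 genes. The fitted differences over all 12 GABA cultures were 1.27 for Alb (SE 0.16), 1.5 for Scd1 (SE 0.21) and 1.00 for Ahsg. The liver genes and Scd1 passed the low-value filter through these 4 cultures, so their p-values are not given as support. Snhg9 was at 25.6, 25.2, 5.00 and 1.05 CPM in the 4, against at most 4.77 CPM untreated, so it overlapped.

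A list of 24 hepatocyte markers, drawn up after these values were seen, was summed in every culture. The sum was 53.5 to 124.8 CPM with a median of 99.5 in the 4 GABA cultures of L14, and each of them held reads of 24 of the 24 markers. It was 1.70 to 5.92 CPM in the other 8 GABA cultures, 0.665 to 5.00 CPM in the 4 untreated cultures of L14 and 0 to 7.55 CPM in the other 36 untreated cultures. Other conditions of pool L14 held such transcripts too. The sum reached 90.2 and 127.8 CPM in the 2 estradiol cultures and 133.5 and 547.3 CPM in the 2 cultures with LPS and estradiol. Of the 35 cultures of L14, 11 in 5 conditions held at least 18 of the 24 markers, and 0 of them was untreated. Transcripts of hepatocytes thus moved with the rises under GABA, and their part in the result of Scd1 and Snhg9 was not tested. Without the 4 GABA cultures of plate P8 the liver genes and Scd1 were no longer tested, Snhg9 differed by 0.75 (adjusted p = 0.387), and 1 gene was called in all.

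**Figure D3:**
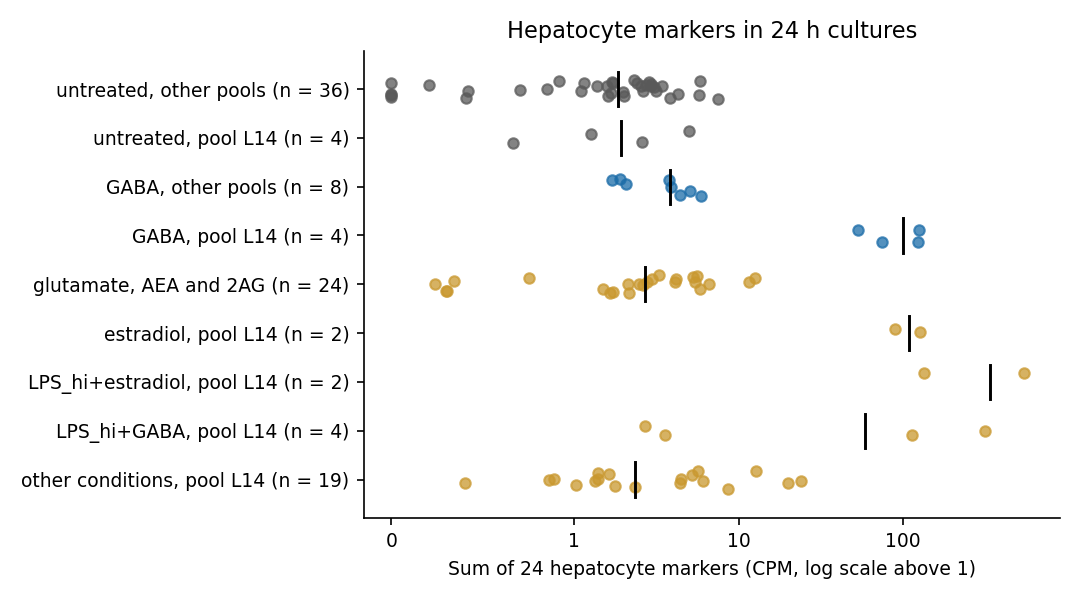
Summed level of 24 hepatocyte markers (horizontal axis, CPM, log scale above 1) in single cultures of 24 h (points) with group medians (bars). The 4 GABA cultures of pool L14 lie at 53.5 to 124.8 CPM, beside estradiol cultures of that pool, while the other 8 GABA cultures lie at 1.70 to 5.92 CPM among the untreated ones.

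Snd1, a nuclease of the RNA-silencing complex and a transcriptional coactivator, was the only gene called lower with GABA. It lay at 36.5 to 100.8 CPM with a median of 67.3 with GABA and at 31.3 to 286 CPM with a median of 137 untreated. Its 12 GABA values all lay below the untreated median, and the ranges overlapped. The fitted difference was -0.74 (SE 0.17, adjusted p = 0.0198), and within pool L14 the medians were 55.6 CPM with GABA and 142 CPM untreated. With library pool in place of plate Snd1 differed by -0.64 and no longer passed (adjusted p = 0.168), and without the GABA cultures of plate P8 it differed by -0.52 with an adjusted p of 0.706. Ftsj3, a ribosomal RNA methyltransferase (-0.70), and 2610507B11Rik (-0.40) came next among the genes lower with GABA, both with an adjusted p of 0.122.

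Cell cycle genes were lower on balance with GABA without passing the test. Of 15 proliferation genes, 0 was called and 10 were lower at an unadjusted p under 0.05, a level that 5.03% of all genes met in that direction. Their median difference was -0.80, against -0.04 over all genes. Ccnb2 (cyclin B2) differed by -1.78 (adjusted p = 0.122), Rrm2 (ribonucleotide reductase) by -1.31 (0.372) and Top2a (topoisomerase II alpha) by -1.20 (0.449). Top2a lay at 9.92 to 506 CPM with a median of 166 with GABA and at 7.31 to 821.5 CPM with a median of 344 untreated, so the ranges overlapped.

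Well position moved with this group of genes. The mean of the 15 genes, on the log2(CPM + 1) scale, was 2.52 to 4.84 in the 6 GABA cultures of edge or corner wells and 5.26 to 6.02 in the 6 of middle wells. Untreated cultures showed the same order, at 2.56 to 5.12 in 10 edge or corner wells and 4.90 to 6.09 in 30 middle wells. Within middle wells the medians were 5.65 with GABA and 5.70 untreated, and within edge wells 3.72 and 4.30. With well position as a further term, the median difference over the list was -0.56 with GABA and -0.30 with glutamate, in place of -0.80 and -0.59. The part of the well in the remainder was not tested.

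**Figure D4:**
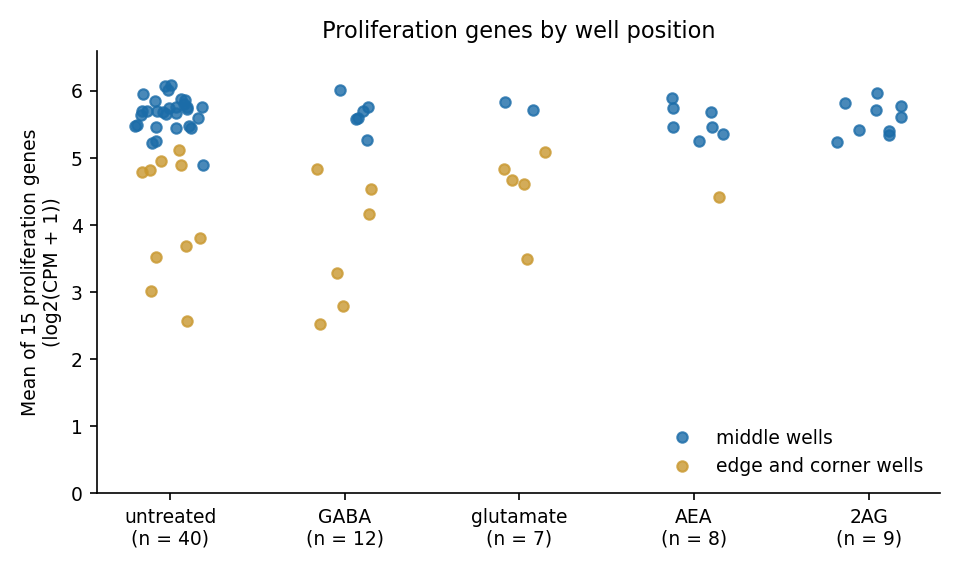
Mean of 15 proliferation genes (vertical axis, log2(CPM + 1)) in single cultures of the 5 groups, with middle wells in blue and edge or corner wells in ochre. The median of edge wells lies below that of middle wells in each group that has both, and the 6 GABA cultures of middle wells lie at 5.26 to 6.02, among the untreated middle wells at 4.90 to 6.09.

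Interferon-response genes were also lower on balance with GABA. Of 16 tested, 0 was called and 8 were lower at an unadjusted p under 0.05, a level that 5.03% of all genes met in that direction. A negative difference was found for 16 of the 16 and for 8234 of all 14208 genes, with medians of -0.47 and -0.04. The largest was that of Rtp4, a chaperone induced by interferon (-0.90, adjusted p = 0.483), followed by Mx1, an antiviral GTPase (-0.70, adjusted p = 0.541). The median was -0.26 with library pool in place of plate, and it was -0.26 with glutamate, -0.20 with AEA and -0.39 with 2AG in the main fit, all against the same untreated wells. With well position as a further term it was -0.39 with GABA. The mean of the 16 genes, on the log2(CPM + 1) scale, had GABA medians of 3.89 in edge or corner wells and 4.47 in middle wells. Untreated cultures had 4.29 and 5.14. These medians mix pools: GABA middle wells lay only in L3 and L14, and untreated middle wells of L6 and L7 lay at 5.75 to 6.63. In middle wells of L14 the mean was 4.08 to 4.57 with GABA and 4.65 to 5.27 untreated. In L3 it was 4.30 to 4.71 in GABA middle wells and 3.93 to 4.66 in untreated edge or corner wells. The part of well position was not tested.

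With glutamate the single call was Arxes2, a gene of adipocyte differentiation. It was at 8.80, 0.194 and 4.38 CPM in the 3 glutamate cultures of pool L4 and listed at 0 in the other 4. Of the untreated cultures 37 were listed at 0 and the highest was at 0.339 CPM. The fitted difference was 0.87 (SE 0.18, adjusted p = 0.0376), and with library pool in place of plate the adjusted p was 0.174. A pair of GABA cultures of pool L6 held Arxes2 as well, at 2.15 and 3.11 CPM. The next genes by p were Gm26646 (1.29, adjusted p = 0.0933) and Ttc16 (0.91, adjusted p = 0.356), higher, and Fcer1g, the common chain of Fc receptors (-0.39, adjusted p = 0.419), RP23-57A17.2 (-0.76) and Psmd13, a proteasome subunit (-0.59), lower. Leaving out replicate 5 or replicate 7 of glutamate, both of pool L4, left 0 calls.

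AEA gave the most calls of the 4, and nearly all were lower. The 49 falls ran from -1.78 to -0.52 with a median of -0.99. The fit compares wells within plates, and for 7 of the 49 the plain mean was above that of all untreated wells. On plate P3 the 3 AEA and 3 2AG cultures lay in pool L5 with 4 untreated cultures, while 5 untreated cultures lay in pool L4. The term for plate does not remove a difference between these 2 pools. With library pool in place of plate the counts were 9 with AEA and 4 with 2AG. The falls included Bhlhe40, a transcription factor of immune activation, Tfg, a factor of export from the endoplasmic reticulum, Malat1, a nuclear long noncoding RNA, Kif2a, a microtubule depolymerase, Med26, a Mediator subunit, and Arid4b, a chromatin factor. Rpl38-ps2 (a ribosomal protein pseudogene, -1.78), Gm37376 (-1.73), Secisbp2l (a relative of the selenoprotein factor SECISBP2, -1.37) and Herc1 (a ubiquitin ligase, -1.29) were also among the 10 largest falls of genes that reached 5 CPM in the higher group. Membrane and secreted proteins among them were Cd81 (a tetraspanin, -0.75), Cd44 (the hyaluronan receptor, -0.60), Adam10 (a sheddase, -0.79) and Mmp12 (macrophage elastase, -0.61). Others were Mavs (the adaptor of RNA sensing, -0.95), Prdm1 (a transcriptional repressor, -1.16), Orai1 (the store-operated calcium channel, -0.79) and Tpr (a nuclear pore protein, -0.99). Of the falls listed so far, only Bhlhe40 and Tfg passed with library pool in place of plate (limma adjusted p = 0.00873 each). The others had adjusted p-values between 0.0998 and 0.378 in that fit.

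For Bhlhe40 and Tfg the falls with AEA lay in the 3 AEA cultures of pool L5. Bhlhe40 was at 0, 0 and 0.343 CPM in these 3 and at 30.3 to 67.9 CPM in the other 5 AEA cultures. Untreated wells lay at 6.43 to 70.2 CPM with a median of 23.6, and the 4 of pool L5 at 6.43 to 16.8 CPM. The 3 cultures thus fell below every untreated culture, and the other 5 lay above the untreated median. The fitted difference of Bhlhe40 was -1.63 (SE 0.31, adjusted p = 0.00110), and without the AEA and 2AG cultures of L5 it was -0.17.

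Tfg was at 11.9, 0 and 10.97 CPM in the 3 AEA cultures of L5 and at 76.8 to 101.6 CPM in the other 5, against 9.81 to 44.7 CPM in the untreated wells of L5 and 9.81 to 118 CPM in all untreated wells. Its fitted difference was -1.27 (adjusted p = 0.00101), and -0.20 without the cultures of L5. The 2AG cultures of L5 were low for both genes as well, at 4.44 to 7.63 CPM for Bhlhe40 and 12.1 to 16.9 CPM for Tfg.

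Without the cultures of L5, 0 genes were called with AEA. Of the 49 falls, 46 kept a negative sign and the median difference of the 49 was -0.38. Some falls stayed near their size: Malat1 differed by -1.47 without these cultures and -1.75 with them, and Secisbp2l by -1.29 and -1.37. Cep290, a protein of cilia (-1.41 and -1.27), and Ap2m1, a subunit of the clathrin adaptor AP2 (-0.87 and -0.93), were named after their values were seen and did the same. With all cultures and library pool in place of plate, Malat1 differed by -0.89, Secisbp2l by -0.81 and Cep290 by -0.89. None of them passed in that fit (limma adjusted p = 0.248, 0.248 and 0.271), whereas Ap2m1 did (-0.62, adjusted p = 0.0143). Ap2m1 had a median of 127 CPM in the other 5 AEA cultures and 221 CPM in those of L5, against 303 and 430 CPM in the untreated wells of the other pools and of L5. With library pool in place of plate 9 genes were called with AEA, and with the 5 groups alone 1 gene was called, which with pool in place of plate was Bhlhe40 (adjusted p = 0.00565). The AEA cultures of L5 held 1270000 to 3287000 reads and the other 5 held 2208000 to 7848000, and the number of genes above 5 CPM differed as given above. The part of depth in the result was not tested. Single cultures also decided the count: it was 3 without AEA replicate 7, 11 without replicate 6 and 19 without replicate 8, all of L5, 93 to 114 without any 1 of the other 5, and 32 without untreated replicate 24.

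By the exact rank-sum test over all genes, which has no term for plate or pool, 1 gene was called with AEA (Bonferroni p = 0.0142). It was Phgdh, the first enzyme of serine synthesis, named after its values were seen. It lay at 0.913 to 3.17 CPM with a median of 1.67 in the 8 AEA cultures and at 1.58 to 25.4 CPM with a median of 6.34 untreated. In pool L5 it lay at 0.913 to 3.15 CPM with AEA, below the untreated wells of that pool at 4.59 to 25.4 CPM. In limma the fitted difference of Phgdh was -1.17 (SE 0.35) with an adjusted p of 0.102.

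Of the 6 rises with AEA, Pltp, the phospholipid transfer protein, was at 16.5, 43.8 and 40.7 CPM in the 3 cultures of L5 and at most 0.653 CPM in the other 5. It was listed at 0 in 26 untreated cultures and reached 24.1 CPM in 1 untreated well of L5. The fitted difference of Pltp was 1.76 (SE 0.39, adjusted p = 0.00907). Csf2ra, the alpha chain of the GM-CSF receptor, rose by 0.58 (adjusted p = 0.0313) and lay at 439.6 to 905 CPM in L5 and 349.9 to 459 CPM elsewhere. Rpl19-ps11, a ribosomal protein pseudogene whose reads can be shared with its near-identical copies, was at 62.4, 5.81 and 45.5 CPM in 3 AEA cultures and near or at 0 in the other 5. Prrx1, a mesenchymal transcription factor, differed by 0.48, Fgf1, a growth factor, by 1.11 and Fbxo2, a ubiquitin ligase subunit, by 0.95, all past the threshold in the main fit. With library pool in place of plate 1 of the 6 passed, Rpl19-ps11 (limma adjusted p = 0.00164), and the others had 0.0736 to 0.424. Without the cultures of L5 the differences were 0.50 (Pltp), 0.17 (Csf2ra), 1.52 (Rpl19-ps11), 0.30 (Prrx1), 0.79 (Fgf1) and 0.20 (Fbxo2).

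**Figure D5:**
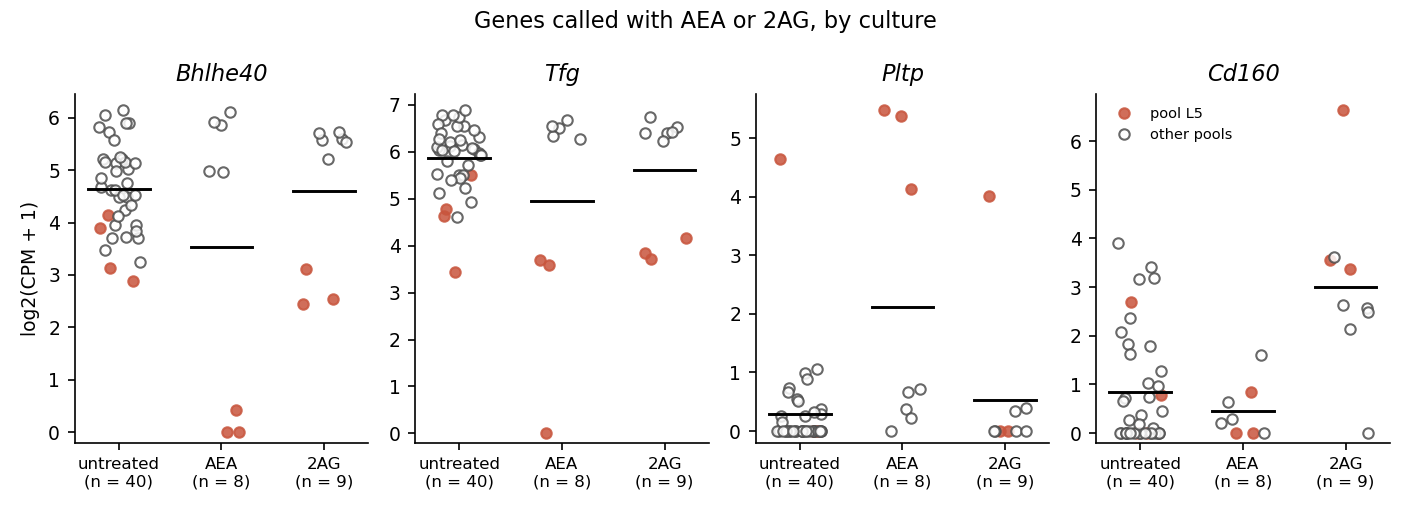
Level of Bhlhe40, Tfg, Pltp and Cd160 (vertical axes, log2(CPM + 1)) in single untreated, AEA and 2AG cultures, with group means as bars and cultures of pool L5 filled in red. The 3 AEA cultures of L5 stand apart from the other 5 for Bhlhe40, Tfg and Pltp, and Cd160 lies above 3 CPM in 8 of 9 2AG cultures.

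With 2AG the largest rise was that of Cd160, a receptor of natural killer and T cells. It was at 0, 4.97, 4.61, 11.3, 3.43, 5.18, 10.7, 99.2 and 9.33 CPM in the 9 cultures, and untreated wells lay at 0 to 14.1 CPM with a median of 0.164. A single 2AG culture, of pool L5, lay above all untreated wells, and 8 of 9 lay above the untreated median. The fitted difference of Cd160 was 2.12 (SE 0.42, adjusted p = 0.00452), and 1.42 with an adjusted p of 1.00 without the cultures of L5. Lymphocyte markers summed to at most 2.08 CPM in the 2AG cultures.

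Kcnip3, a calcium-binding partner of potassium channels, was at 19.3 and 5.87 CPM in 2 of the 3 2AG cultures of L5 and listed at 0 in the other 7 (log2 difference 0.76). RP24-80F7.8 was at 5.49, 5.40 and 0.691 CPM in the 3 cultures of L5 and at most 0.355 CPM in the other 6 (0.71). Both were called, but passed the low-value filter only with the AEA and 2AG cultures of L5. Their p-values are therefore not given as support, and without those cultures they were no longer tested. Fbp1, the gluconeogenic fructose bisphosphatase, lay at 0.399 to 9.85 CPM with 2AG and was listed at 0 in 27 of 40 untreated wells (1.09, adjusted p = 0.0226). Tpr fell (-0.83, adjusted p = 0.0226) and lay at 10.7 to 17.7 CPM in L5 and 49.7 to 152.7 CPM elsewhere, against 16.4 to 180.2 CPM untreated. With library pool in place of plate Tpr differed by -0.56 with 2AG and no longer passed (adjusted p = 0.999). Ik, a splicing factor (-0.48, adjusted p = 0.181), and Arf6, a small GTPase of membrane traffic (-0.73, adjusted p = 0.195), were next among the lower genes and did not pass. Without the cultures of L5, or without replicate 8 alone, 0 genes were called with 2AG.

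AEA and 2AG both carry an arachidonoyl chain, joined to ethanolamine as an amide in AEA and to glycerol as an ester in 2AG. They were given at the same dose for the same time, in the same 3 pools, and this 1 pair was compared directly. Of 14208 genes 2 differed (0.0141%), Rpl19-ps11, higher with AEA (1.76, SE 0.35, adjusted p = 0.0118), and Cd160, lower with AEA (-2.57, SE 0.53, adjusted p = 0.0166). Cd160 lay at 0 to 2.04 CPM in the 8 AEA cultures, and 8 of 9 2AG cultures lay above that range. Fgf1 (1.48, adjusted p = 0.122) and Cngb1, a cyclic nucleotide-gated channel subunit (1.01, adjusted p = 0.171), came next on the AEA side, and Kcnip3 (-0.80, adjusted p = 0.132) and Gm37699 (-1.45, adjusted p = 0.673) on the 2AG side. For the other genes a difference was not shown, and the interval of the difference lay inside 2-fold for 64.9% of genes and inside 1.5-fold for 17.8%. For Mgll it ran from -0.99 to 0.46, and for Faah, which breaks down AEA, from -0.41 to 0.89. Without the cultures of L5 0 genes differed in limma, and Cd160 differed by -1.69 and Rpl19-ps11 by 1.68. The exact rank-sum test could call no gene between these groups, since its smallest possible p times the number of genes exceeds the threshold. GABA and glutamate were given at other doses than these lipids, and their values stand side by side above without a comparison.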

How the data were processed

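The cultures, their stimulus, time and dose were taken from the labels, and plate, library pool, cell lot and well position from the header of the culture table. Replicates were numbered within a group and the numbers pair nothing. Per the study's methods the authors assigned 3′-end reads to transcripts of Ensembl build 81 with Salmon (0.7.1 in the submitters' processing notes, which name the genome build mm8) and summed them per gene. The deposited values are CPM, counts-per-million of the mapped reads, not corrected for length. They summed to between 997600 and 999800 in the 76 cultures, and the study's word for them is TPM. Wells with few reads or genes had been removed by the authors. Of 784 columns in the culture table, 63 whose sample was not among those given were not used here. Gene names are those of the table, in which some were turned into dates (8-Sep), and no coordinates are given.

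Depth was taken from the step between low values. Only 72.8% to 88.0% of low values matched a whole read to within 0.1, so counts were not rebuilt and count tests were not used. Depth was 1089000 to 26630000 reads, so 1 CPM stood for about 1 read in the shallowest well. Replicates were not duplicates: in the most alike pairs at least 94.1% of genes still differed.

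Values were fitted as log2(CPM + 1) with limma 3.58.1 in R 4.3.3, over the 374 cultures of 24 h without LPS combinations, for genes above 5 CPM in at least 4 cultures. The model held stimulus and culture plate, with empirical Bayes moderation and Benjamini-Hochberg adjustment at 0.05. The detectable change is the difference with 80% power at a gene's moderated error, at 0.05 divided by the number of genes. Single values and module eigengenes (first principal component of a module's genes) were compared by exact 2-sided rank-sum tests in Python 3.11.15 with numpy 2.4.6, scipy 1.17.1 and pandas 2.3.3. These tests held no term for plate or pool, except where ranks within plates or pools are named. Figures were drawn with matplotlib 3.10.9. The steps were tested on simulated data.

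Named genes were the 10 largest rises and 10 largest falls among called genes with at least 5 CPM in the higher group, and up to 3 by smallest p where fewer than 3 passed. For AEA against 2AG 5 each were taken. Genes of the 6 lists of receptors, transporters and enzymes, genes that the study names, and up to 4 from each of the other lists were added. Phgdh and any gene beyond these were named with their values in view. The stimuli, the 25 gene lists and the tests were chosen with earlier results of these data known. Alternatives were other pseudocounts (0.5 and 5), other filters, other terms for batch, fewer groups, a fold minimum, rank-sum tests and leaving out cultures.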

Additional observations from a re-analysis of the deposited data

Results flagged for a closer look

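Of 61 genes and sets of cultures tested by Dixon's test, 6 held 1 culture apart, where chance gives 1 in 20. All 6 lay within the AEA cultures, each time 1 culture against the other 7, not always shown to be the same one. These were the highest culture for Csf2ra (905.2 CPM) and the lowest for Tfg (0 CPM), Klf3 (4.73 CPM), Pias1 (10.2 CPM), Top3b (0.788 CPM) and Ttf1 (0 CPM). All 6 genes had been called with AEA, so these tests are not independent of the calls.

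Between AEA and 2AG, Cd160 (-2.57, AEA minus 2AG on the log2 scale) and Rpl19-ps11 (1.76) differed by a direct test of the difference. Both are given above with their values by culture.

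Hepatocyte transcripts were found outside the 4 comparisons. The summed 24 markers reached 127.8 CPM in an estradiol culture and 547.3 CPM in a culture with LPS and estradiol, both of pool L14, and 155.8 CPM in an untreated 72 h culture of pool L11, against at most 7.55 CPM in untreated 24 h cultures.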

How the results depend on the processing

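No paired analysis was possible because the labels give no replicate numbers, and none ties a stimulated well to an untreated one, so no replicate block was fitted. The numbers of calls were 9 (GABA), 1 (glutamate), 55 (AEA), 5 (2AG) and 2 (AEA against 2AG). Those that moved by over 1.5 times were these. Without the low-value filter there were 514, 321, 308, 236 and 275 calls in that order, and with a mean of at least 20 CPM 0, 0, 91, 1 and 0. With a log2 change of at least 1 there were 4 (GABA), 0 (glutamate), 27 (AEA) and 2 (2AG). With a pseudocount of 5 there were 4 (glutamate) and 21 (AEA), and with 0.5 there were 0 (glutamate) and 1 (AEA against 2AG). Without a batch term there were 3 (glutamate) and 19 (AEA), and with library pool in place of plate 0 (glutamate) and 9 (AEA). With only the 5 groups there were 3, 0, 1, 1 and 0. The exact rank-sum test, without a term for plate, called 0, 0, 1 and 0 with the 4 stimuli. Between AEA and 2AG its smallest possible p, multiplied by the number of genes, exceeds the threshold, so it could call none. Chosen after seeing the data, only the 5 groups with pool gave 0, 0, 1, 1 and 0, plate with well position gave 2 (glutamate) and 106 (AEA), leaving out the GABA cultures of P8 gave 1 (GABA), and leaving out the AEA and 2AG cultures of L5 gave 0, 0 and 0 for AEA, 2AG and their difference. Leaving out 1 stimulated culture gave 8 to 12 calls with GABA, 0 to 3 with glutamate, 3 to 114 with AEA, 0 to 7 with 2AG and 0 to 3 between AEA and 2AG. Leaving out 1 untreated culture gave 9 to 11, 1 to 2, 32 to 82 and 5 to 6 for the 4 stimuli. Module calls were 0 throughout, except 1 with glutamate without replicate 7. The detectable change for the median gene (1.30 with GABA, 1.63 with glutamate, 1.55 with AEA and 1.48 with 2AG) was 0.71, 0.90, 0.85 and 0.81 without the filter, where genes with few reads enter, and 0.80, 1.01, 0.96 and 0.91 with a pseudocount of 5, which compresses changes of low genes. GABA for 72 h gave 841 calls, and 67 with pool in place of plate. GABA with LPS gave 81 calls, 122 with a pseudocount of 5, 350 without the filter, 35 with at least 20 CPM and 32 without the 2 cultures that hold liver transcripts. The cause of these moves was not tested. Among named genes, called values kept their sign in 1755 of 1755 alternative values and fell short of the threshold in 201. Those not called passed it in 42 of 2534 and changed sign in 36. Over all 49 falls called with AEA, named or not, 46 kept their sign without the cultures of L5. Depth limits genes of a few CPM, which rest on few reads in the shallowest wells.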

Other observations

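GABA was also given for 72 h (8 cultures) and together with the high dose of LPS for 24 h (8 cultures). At 72 h against 25 untreated cultures of that time, 841 of 15469 genes were called (5.44%), 466 higher and 375 lower, and 67 were called with library pool in place of plate. Only 4 of the 25 untreated 72 h cultures shared a pool with the GABA cultures, so stimulus and pool could hardly be told apart. Of the 15 proliferation genes 12 were called higher, with a median log2 difference of 3.24, and 3 with a median of 2.06 with pool. Gclm, the modifier subunit of glutamate-cysteine ligase, fell by 3.39 on the log2 scale (adjusted p = 6.59e-07 in limma) and by 1.60 with pool (adjusted p = 0.0288). Slc7a11, the light chain of the cystine-glutamate antiporter, fell by 3.22 and Slc1a1, a glutamate uptake carrier, rose by 0.80 in the fit with plate, and neither passed with pool.

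With LPS, GABA was compared with 18 cultures given LPS alone. Of 14433 genes 81 were called (0.561%), 25 higher and 56 lower. Of 16 interferon-response genes 3 were called lower, with a median of -0.99 against -0.02 over all genes, and with pool 4 were called lower with a median of -0.95. Il1b differed by -1.40 and did not pass (adjusted p = 0.0623), whereas with pool it fell by 1.29 and passed (adjusted p = 0.0156). Tnf (-0.67, adjusted p = 0.367) did not pass, nor with pool (-0.59, adjusted p = 0.411). Alb (1.06, adjusted p = 0.0259), Mup20 (1.07) and Ahsg (0.79) were called higher here too, and with pool 0 of these 3 was called (0.71, 0.71 and 0.54, with adjusted p-values between 0.200 and 0.236). The 4 cultures with LPS and GABA in pool L14 held summed hepatocyte markers of 2.71 to 314.4 CPM, and 2 of them held 24 of the 24 markers. Whether the effect of GABA differed with and without LPS was not tested.

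At 72 h, 25 of the 41 cultures of pool L11 held at least 18 of the 24 hepatocyte markers. They fell in 10 conditions and included 5 untreated cultures, unlike pool L14 with 11 of 35 cultures in 5 conditions and 0 untreated.

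Among the remaining gene lists, cholesterol efflux and lipid storage held 1 call, Scd1 with GABA. The lists of homeostatic microglia and of astrocyte, oligodendrocyte, neuron, fibroblast and mural, endothelial, monocyte and neutrophil, lymphocyte and border macrophage markers held 0 calls with any of the 4 stimuli in limma.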
